A study of Mus musculus with 4 samples.

Results

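The genes described here encode 7 complement components and 2 complement receptors of mouse peritoneal macrophages. They are *C1qa*, *C1qb*, *C1qc*, *C3*, *C4b*, *Cfb*, *Cfp*, *C3ar1* and *C5ar1*, taken by name, and all 9 were among the 15298 genes of the expression table. The study asked how microcurrent stimulation (MCS), a weak current passed between skin pads on the abdomen and back, affected macrophages. The cells were CD11b+ F4/80+ Ly6G- cells of the peritoneal cavity, sorted by flow cytometry, and the BALB/c mice were females aged 6 weeks that were handled under isoflurane. RNA-seq was done once per condition, in control and MCS mice at zeitgeber time (ZT) 2 and ZT14, which made 4 libraries.

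The current given to MCS mice was 300 µA at 400 Hz and lasted 15 min, whereas controls had the same handling with no current. ZT2 was the time just after the end of MCS and ZT14 was 12 h later. For controls too, ZT2 was 0 h and ZT14 12 h after the procedure. Time of day and time since the anesthesia and handling thus cannot be told apart. Time below means this joint contrast. The wild-type strain, the sex and the age were shared by all 4 groups, as was the anesthesia, and how many mice went into each library is not stated in the labels or the methods. Since each condition had 1 library, no difference between 2 libraries has a replicate check. Values are CPM, reads of a gene scaled by the authors to a common library total, and intervals in brackets are 95% intervals from the number of reads, which cover counting error only. Reads of PCR-amplified libraries are not independent molecules, so these intervals are lower limits of the real error.

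Complement is a cascade of plasma proteins that tags microbes and dying cells for removal. C1q recognises bound antibody or altered surfaces and leads to cleavage of C4 and C2, while factor B and properdin build and hold the alternative convertase, and both routes meet at C3. Most plasma complement comes from the liver, but tissue macrophages make C1q, C4, factor B and properdin themselves and carry receptors for the fragments C3a and C5a.

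The sorted cells carried the RNA of macrophages. The 6 macrophage genes (*Adgre1*, which encodes F4/80, *Itgam*, *Csf1r*, *Cd68*, *Lyz2*, *Mertk*) summed to between 24701 and 27143 CPM, and the 6 genes of large peritoneal macrophages, *Gata6* and *Timd4* among them, to between 7901 and 10242 CPM. *Lyz2* alone was at 17344 to 18847 CPM, so the macrophage sum says little about the other genes in it. B cell genes summed to between 901 and 1279 CPM and mast cell genes to between 952 and 2240 CPM in the sorted cells. The libraries held between 8365590 and 9953243 reads assigned to the listed genes. A fall in the RNA of a gene within a cell and a fall in the number of cells that carry it cannot be told apart in these bulk samples.

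The 9 genes together took 1.44% of the reads in control ZT2, 1.36% in MCS ZT2, 1.52% in control ZT14 and 1.59% in MCS ZT14. *C4b* alone made up between 58.6% and 64.9% of these reads. Per kilobase of the longest annotated transcript, the mean levels over the 4 libraries ran from *C4b* (1715 CPM per kb) through *Cfp* (1130), *C1qa* (1081), *C1qc* (804), *C1qb* (713), *Cfb* (112), *C3ar1* (57.1) and *C5ar1* (44.2) to *C3* (33.8 CPM per kb). The ranges over the 4 libraries overlapped for the neighbours *Cfp* and *C1qa*, for *C1qc* and *C1qb*, and for *C3ar1* and *C5ar1*, so the order within these pairs is not firm. The other neighbours did not overlap. *C3*, the component on which all routes converge, was thus the lowest of the 9 per length, and *C4b* the highest. With the median transcript length in place of the longest, *C4b* was still the highest, but *C3*, at 286 CPM per kb, was above *Cfb* (183), *C3ar1* (57.1) and *C5ar1* (45.2 CPM per kb). The low place of *C3* thus holds for the longest transcript, of 5136 bases. The median of its annotated transcripts was 608 bases, a length set by short fragments.

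**Figure D1:**
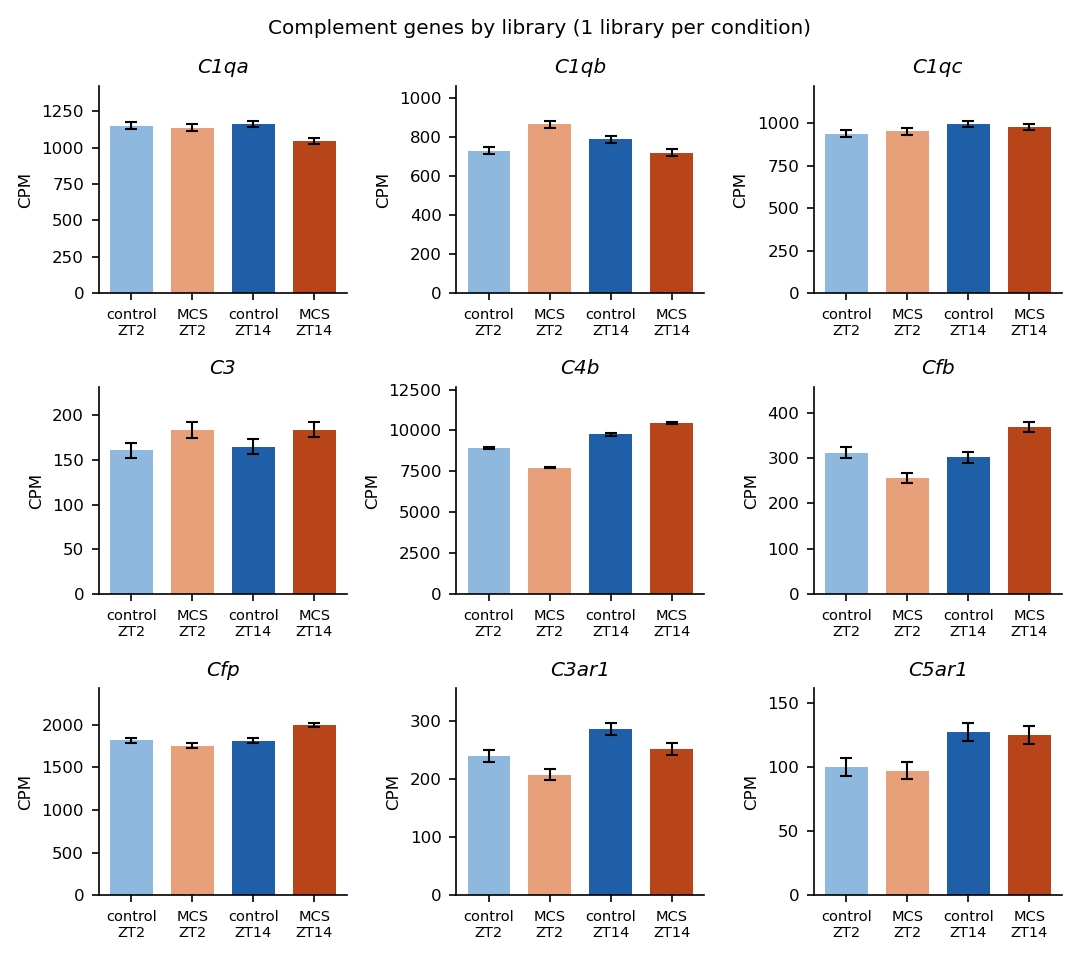
CPM of each of the 9 complement genes (y axes, from 0) in the 4 libraries (bars), with 95% counting intervals as error bars and 1 library per condition. *C1qc* was nearly level and *C1qa* was lowest in MCS ZT14. *Cfb* ranged from 255 CPM in MCS ZT2 to 368 CPM in MCS ZT14, and *C3ar1* and *C5ar1* were higher in each ZT14 library than in the ZT2 library of the same treatment.

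The upstream sequences of 4 genes are shown because 2 of them are neighbours in a cluster whose chains did not keep the same proportion in every library, and the other 2 encode receptors that were both lower at ZT2. Of the 9 genes, 6 had an entry in the RefSeq promoter table (GRCm38.p6), and *C1qa*, *C4b* and *Cfb* had none. Each stretch runs 5′ to 3′ on the strand of the gene and holds the part of the 250 bases before the RefSeq start that lies outside the GENCODE gene model. Capitals mark AGGAAG or its reverse complement, the core letters bound by ETS factors such as the macrophage regulator PU.1.
*C1qb* chr4:136886201-136886450, minus strand: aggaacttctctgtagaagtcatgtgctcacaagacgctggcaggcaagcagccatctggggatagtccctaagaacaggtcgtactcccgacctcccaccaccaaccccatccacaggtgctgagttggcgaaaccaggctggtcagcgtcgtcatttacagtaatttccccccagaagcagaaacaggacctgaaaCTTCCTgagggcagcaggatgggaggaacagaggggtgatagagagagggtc
*C1qc* chr4:136893066-136893164, minus strand: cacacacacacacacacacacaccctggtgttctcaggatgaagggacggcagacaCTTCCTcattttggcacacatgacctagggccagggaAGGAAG
*C3ar1* chr6:122856162-122856407, minus strand: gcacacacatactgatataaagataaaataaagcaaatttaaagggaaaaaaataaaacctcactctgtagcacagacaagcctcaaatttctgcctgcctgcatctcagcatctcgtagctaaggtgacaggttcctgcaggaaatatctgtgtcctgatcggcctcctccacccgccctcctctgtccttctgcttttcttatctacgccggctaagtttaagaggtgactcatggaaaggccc
*C5ar1* chr7:16259541-16259588, minus strand: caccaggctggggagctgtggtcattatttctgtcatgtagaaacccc

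Within the full 250 bases, AGGAAG was found on either strand in 3 of 6 promoters, *C1qb*, *C1qc* and *C5ar1*, and in 29.2% of the 27025 promoters of the table. The *C1qb* copy began 52 bases before the RefSeq start and those of *C1qc* 194 and 157 bases before the RefSeq start. GENCODE places the start of *C1qc* further upstream, directly after the printed 99 bases, which hold both copies. The *C5ar1* copies lay 189, 71 and 67 bases before the RefSeq start, the last 2 overlapping, in the stretch that GENCODE counts as transcribed and that is not printed. The E-box CACGTG, bound by clock factors, was in 0 of 6 of these windows and in 6.05% of all promoters, and GAS (TTCNNNGAA) in 0 of 6 and 7.18%. The nuclear receptor half-site AGGTCA was in 2 of 6 (*C1qc* and *C3*) against 13.8%. These are matches of letters in a short window, and each motif was searched on both strands.

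No complement gene of the 9 passed a log2 ratio of 1, which is a doubling or a halving, in any comparison. The count was 0 of 9 for MCS against control at ZT14, where 3.4% of all genes tested passed, and 0 of 9 at ZT2, where 2.21% passed. For ZT2 against ZT14 it was also 0 of 9, both in control, where 3.61% passed, and in MCS, where 5.83% passed. At a log2 ratio of 0.5 (1.41-fold), the count stayed at 0 of 9 for MCS against control at ZT14 (16.7% of all genes), for MCS against control at ZT2 (10.4%) and for the ZT2 to ZT14 comparison in control (15.3%). Only *Cfb* passed it, in ZT2 against ZT14 in MCS, which is 1 of 9 beside 23.6% of all genes. These shares are over genes with a log2 mean above 0, such as 12368 genes for MCS at ZT14. Only 3022 genes there had a log2 mean above 6, as all 9 complement genes did. Ratios of genes with few reads vary more, so these shares are not a background matched for expression.

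Smaller differences could be read against counting error, since each gene had at least 837 reads in each library. For MCS against control at ZT14, the counting interval left out 0 for 7 of 9 genes, 4 higher and 3 lower, beside 64.3% of the 3022 genes with a log2 mean above 6 (64 CPM). At ZT2 it did so for 6 of 9, 2 higher and 4 lower, beside 42.4%. For ZT2 against ZT14 it left out 0 for 5 of 9 in control, all lower at ZT2, beside 53.3%, and for 7 of 9 in MCS, 2 higher and 5 lower, beside 68.8%. No difference between these 9 genes and abundant genes as a whole was tested, and an interval without 0 says only that 2 libraries differed by more than counting error. Taken over the 9 genes, the median log2 ratio was -0.01 and -0.04 for MCS at ZT14 and ZT2, and it was -0.08 in control and -0.19 in MCS for the ZT2 to ZT14 comparison. Over the genes above a log2 mean of 6 it was -0.02, 0.0, -0.04 and 0.0 in the same order.

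**Figure D2:**
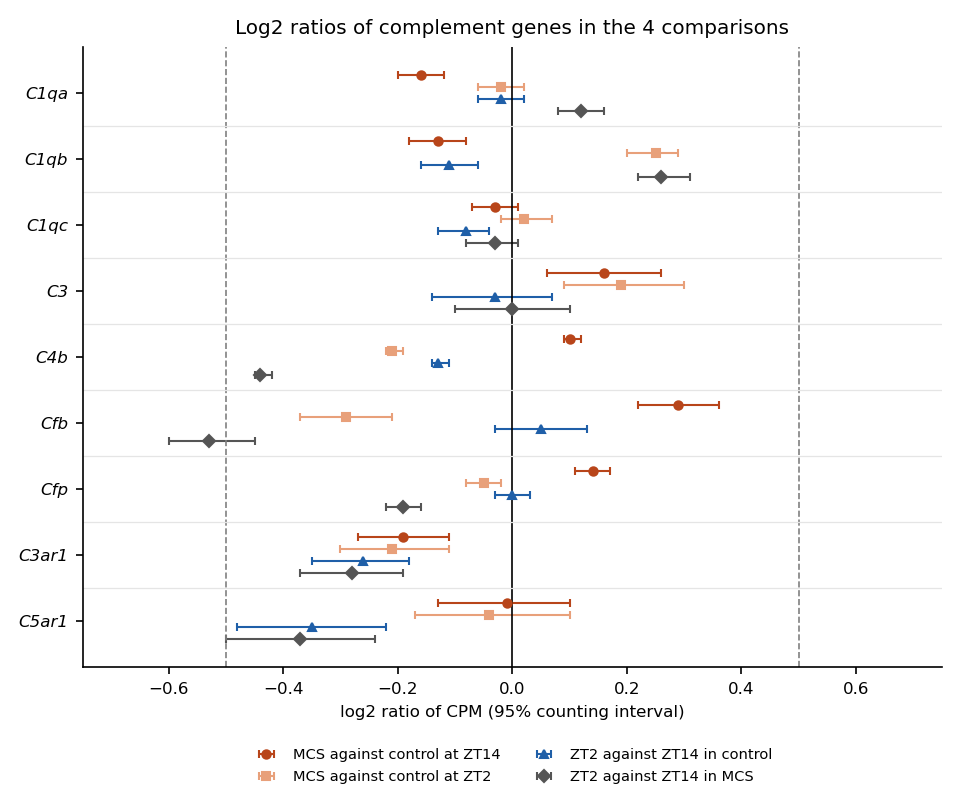
Log2 ratio of CPM (x axis) of the 9 complement genes in the 4 comparisons, with 95% counting intervals as bars and dashed lines at 0.5 in both directions. *Cfb* in ZT2 against ZT14 in MCS, at -0.53, is the only point beyond a dashed line.

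**Figure D3:**
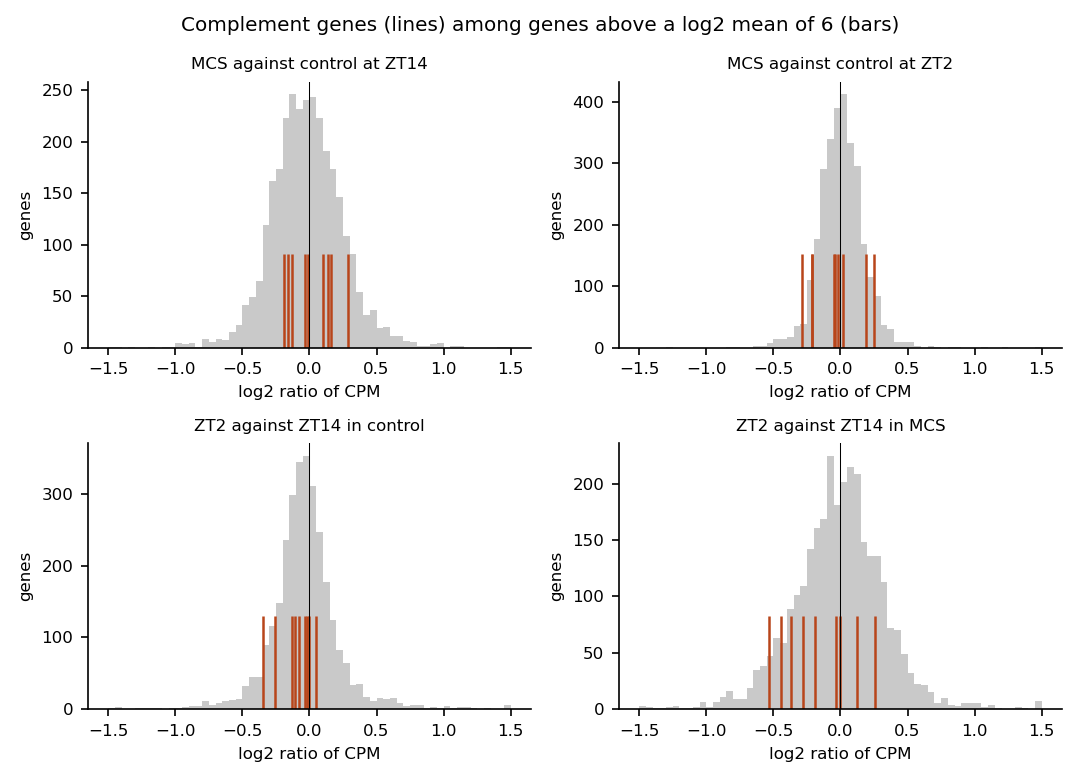
Number of genes (y axis) by log2 ratio of CPM (x axis) among genes with a log2 mean above 6, with the 9 complement genes as lines of arbitrary height and ratios beyond 1.5 counted in the outermost bars. The lines lie within the bulk of the genes in each comparison, between -0.53 and 0.29.

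The C1q chains are made from 3 neighbouring genes on the minus strand of chromosome 4 (GRCm38, GENCODE M21), *C1qb* at chr4:136880129-136886187, *C1qc* at chr4:136889804-136893065 and *C1qa* at chr4:136895917-136898803. The A, B and C chains join into 1 collagen-like molecule with globular heads. *C1qa* was at 1151 CPM in control ZT2, 1137 in MCS ZT2, 1164 in control ZT14 and 1043 in MCS ZT14. *C1qc* was at 940, 954, 996 and 978 CPM in the same order. *C1qb* was at 729, 865, 788 and 720 CPM.
*C1qc* kept the most even level of the 3, and MCS ZT14 stood low for *C1qa* while MCS ZT2 stood high for *C1qb*. At ZT14, MCS against control gave a log2 ratio of -0.16 (-0.2 to -0.12) for *C1qa*, of -0.13 (-0.18 to -0.08) for *C1qb* and -0.03 (-0.07 to 0.01) for *C1qc*. At ZT2 it was -0.02 (-0.06 to 0.02) for *C1qa*, 0.25 (0.2 to 0.29) for *C1qb* and 0.02 (-0.02 to 0.07) for *C1qc*. The higher *C1qb* level in MCS ZT2 was thus not seen in its neighbours.

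Within the reads of the 3 chains, which do not depend on the scaling of the libraries, *C1qb* took 25.8% (25.3 to 26.4) in control ZT2, 29.3% (28.7 to 29.8) in MCS ZT2, 26.7% (26.2 to 27.2) in control ZT14 and 26.3% (25.7 to 26.8) in MCS ZT14, with exact binomial intervals. Its interval in MCS ZT2 lay above those of the other 3 libraries. The *C1qc* share was highest in MCS ZT14, at 35.7% (35.1 to 36.2), and between 32.3% and 33.8% elsewhere. The *C1qa* share ran from 38.1% to 40.8%. The interval covers counting only, and whether a second MCS library at ZT2 would share this is not known.

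**Figure D4:**
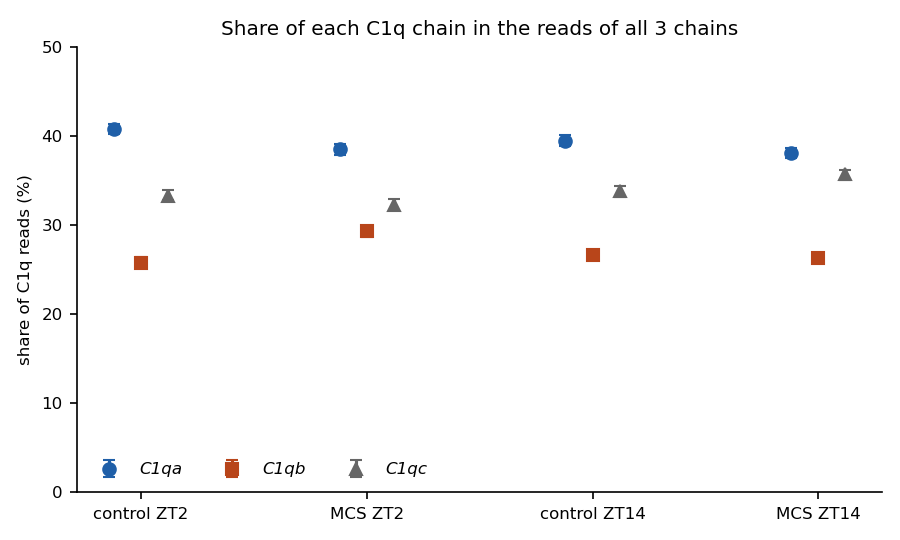
Share of each C1q chain in the reads of *C1qa*, *C1qb* and *C1qc* together (y axis, percent) in the 4 libraries, with exact 95% binomial intervals, many smaller than the symbols. *C1qb* stood at 29.3% in MCS ZT2 and between 25.8% and 26.7% in the other 3 libraries.

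*C4b* (chr17:34728380-34743882) encodes C4, which is cleaved after C1q or lectin binding and attaches to surfaces. It was at 8923 CPM in control ZT2, 7732 in MCS ZT2, 9753 in control ZT14 and 10482 in MCS ZT14. Both ZT2 libraries were below both ZT14 libraries, and the MCS libraries were the lowest and the highest of the 4. The log2 ratio of MCS to control came to 0.1 (0.09 to 0.12) at ZT14 and -0.21 (-0.22 to -0.19) at ZT2. ZT2 against ZT14 gave -0.13 (-0.14 to -0.11) in control and -0.44 (-0.45 to -0.42) in MCS.

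*C4a*, which lies 65209 bases from *C4b* and is annotated without a protein in GENCODE M21, has a longest transcript 96.0% identical to that of *C4b* over 5378 aligned bases. RSEM divides reads that fit both, so the split between them is uncertain. *C4a* took 5.38% of the reads of both genes in control ZT2, 5.3% in MCS ZT2, 5.11% in control ZT14 and 4.3% in MCS ZT14. The share was lowest in MCS ZT14, where *C4b* was highest. *C4a* itself was at 507, 433, 525 and 471 CPM, and its MCS to control log2 ratio at ZT14 came to -0.16 (-0.22 to -0.1), opposite in sign to that of *C4b*.

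*C3* (chr17:57203970-57228136), the central component, was at 161 CPM in control ZT2, 184 in MCS ZT2, 165 in control ZT14 and 184 in MCS ZT14. Both MCS libraries were above both controls, and the ZT2 and ZT14 libraries of the same treatment were close. MCS against control gave log2 ratios of 0.16 (0.06 to 0.26) at ZT14 and 0.19 (0.09 to 0.3) at ZT2. *C3* and *C1qa* were the 2 of 9 genes whose MCS and control libraries did not overlap, *C3* above and *C1qa* below, beside 17.0% of the 2959 genes whose mean log2 CPM over all libraries exceeded 6. Fibroblasts and mesothelial cells also make *C3*. The 5 fibroblast genes summed to 15.5 CPM in control ZT2, 19.7 in MCS ZT2, 4.06 in control ZT14 and 9.51 in MCS ZT14, with *Pdgfra* at 0 in all but MCS ZT2, and 4 of 5 were higher in MCS at each time. The 6 mesothelial genes summed to 9.7, 11, 3.41 and 4.81 CPM, with none at 0. Their part in the result was not tested.

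Factor B, encoded by *Cfb* (chr17:34856374-34862518), is the protease of the alternative pathway convertase, and its gene showed the widest range of the 9. It was at 311 CPM in control ZT2, 255 in MCS ZT2, 301 in control ZT14 and 368 in MCS ZT14. The controls were close to each other and lay between the MCS libraries. The log2 ratio of MCS to control was 0.29 (0.22 to 0.36) at ZT14 and -0.29 (-0.37 to -0.21) at ZT2, and their difference, ZT14 minus ZT2, was 0.57 (0.47 to 0.68). Among 2981 abundant genes the absolute difference had a median of 0.24, and 15% passed 0.5. ZT2 against ZT14 was 0.05 (-0.03 to 0.13) in control and -0.53 (-0.6 to -0.45) in MCS.

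Properdin, the plasma protein that holds this convertase together, is encoded by *Cfp* (chrX:20925454-20931555), which was at 1820 CPM in control ZT2, 1758 in MCS ZT2, 1817 in control ZT14 and 2001 in MCS ZT14. The controls were level and MCS ZT14 stood above the other 3 libraries. Its log2 ratio of MCS to control was 0.14 (0.11 to 0.17) at ZT14 and -0.05 (-0.08 to -0.02) at ZT2. *Cfb*, *C4b* and *Cfp* therefore shared the order of MCS libraries, highest at ZT14 and lowest at ZT2, with *Cfb* at the widest span. The *Cfb* share of the *Cfb* and *Cfp* reads was 14.6% (14.1 to 15.1), 12.7% (12.2 to 13.2), 14.2% (13.7 to 14.7) and 15.5% (15.1 to 16.0) in the order control ZT2, MCS ZT2, control ZT14 and MCS ZT14, so *Cfb* moved more than *Cfp*.

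Over the same 4 libraries, the genes nearest to *Cfb* among 5323 genes with a mean of at least 30 CPM were *Creb3* (31.6, 26.3, 30.6 and 37.9 CPM in control ZT2, MCS ZT2, control ZT14 and MCS ZT14), *Ccnd3* (125, 100, 121 and 146 CPM) and *Hspa5* (717, 586, 693 and 867 CPM). Their centred log2 profiles lay 0.011, 0.015 and 0.016 from that of *Cfb* in root mean square. With 4 points per profile, many genes can lie close. Markers moved with the MCS libraries too. The large peritoneal macrophage genes summed to 8900 CPM in control ZT2, 7901 in MCS ZT2, 8144 in control ZT14 and 10242 in MCS ZT14, and in ZT2 against ZT14 in MCS 1 of 6 was higher. The 6 mast cell genes, with none at 0, were all higher in that comparison, at 2240 CPM in MCS ZT2 against 952 in MCS ZT14, and the 6 neutrophil genes measured were too, at 85.6 against 12 CPM, with *Ngp* at 0 in MCS ZT14. The red blood cell genes measured summed to 36.4 and 110 CPM in these libraries, with *Hba-a2* at 0 in MCS ZT2. In the controls they summed to 3.23 CPM at ZT2 and 1.32 CPM at ZT14, with *Hba-a2* and *Hbb-bt* at 0 in both. They were thus higher with MCS at both times, 5 of 5 genes at ZT14 and 4 of 5 at ZT2. Neutrophil genes summed to 17.2 CPM in control ZT2 and 20.4 CPM in control ZT14, so the sum with MCS was higher at ZT2 and lower at ZT14. All 6 were higher with MCS at ZT2. At ZT14, 1 of 6 was higher with MCS, *Retnlg*, at 5.93 against 2.2 CPM. The part of these cells in the *Cfb*, *C4b* and *Cfp* values was not tested.

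The receptor for C3a, a small fragment released when C3 is cut, is encoded by *C3ar1* (chr6:122847138-122856161). It was at 239 CPM in control ZT2, 207 in MCS ZT2, 286 in control ZT14 and 251 in MCS ZT14. The receptor for C5a, *C5ar1* (chr7:16246743-16259540), was at 99.6, 97.1, 127 and 125 CPM in that order. Both receptors were lower in both ZT2 libraries than in both ZT14 libraries, and *C3ar1* was also lower with MCS at each time, while *C5ar1* was nearly level between control and MCS.

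ZT2 against ZT14 gave log2 ratios of -0.26 (-0.35 to -0.18) in control and -0.28 (-0.37 to -0.19) in MCS for *C3ar1*, and -0.35 (-0.48 to -0.22) and -0.37 (-0.5 to -0.24) for *C5ar1*. MCS against control gave log2 ratios of -0.19 (-0.27 to -0.11) at ZT14 and -0.21 (-0.3 to -0.11) at ZT2 for *C3ar1*, and -0.01 (-0.13 to 0.1) and -0.04 (-0.17 to 0.1) for *C5ar1*. In all, 4 of 9 genes, *C1qc*, *C4b*, *C3ar1* and *C5ar1*, were lower in both ZT2 than in both ZT14 libraries, and 0 were higher. Of 2959 abundant genes, 760 were lower and 512 higher in this way, which is 43.0% in either direction. All 6 mast cell genes, none at 0, were higher at ZT2, at 1818 against 1183 CPM in sum in control and 2240 against 952 CPM in MCS. All 6 mesothelial genes, none at 0, were higher at ZT2 as well, at 9.7 against 3.41 CPM in control and 11 against 4.81 CPM in MCS. The part of these cells in the receptor values was not tested. The *C3ar1* share of the reads of both receptors was between 66.7% and 70.6%.

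An additive count test on the reads recovered from the CPM, edgeR's quasi-likelihood test with Benjamini-Hochberg adjustment over 12404 genes, uses the 4 libraries with 1 residual degree of freedom and assumes the same MCS effect at both times. It called 0 of 9 complement genes for time, beside 2.38% of all genes, and 0 of 9 for MCS, beside 0.193%. At an unadjusted p of 0.05, 1 of 9 passed for time, beside 10.4% of all genes, and 0 of 9 for MCS, beside 2.45%. For *C5ar1* the edgeR time term was -0.35 with an adjusted p of 0.442, and for *C3ar1* it was -0.26 with an adjusted p of 0.725. A gene whose MCS ratio had opposite signs at the 2 times, such as *Cfb*, has them averaged in the additive MCS term.

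Other complement genes were taken from a list of 41 by role, of which 35 were in the table, and 11 of these had a mean of at least 10 CPM. For MCS against control, 2 of the 17 tested passed a log2 ratio of 1 at ZT14, both lower, beside 3.4% of all genes, and 0 of 20 at ZT2, beside 2.21%. For ZT2 against ZT14 it was 1 of 19 in control, beside 3.61%, and 1 of 19 in MCS, beside 5.83%, both higher at ZT2. The 2 calls for MCS at ZT14 and the call in control were lost with a pseudocount of 1 CPM or a log2 mean above 3. At a log2 ratio of 0.5 the counts were 8 of 17 (3 higher, 5 lower), 5 of 20 (3 higher, 2 lower), 6 of 19 (5 higher, 1 lower) and 6 of 19 (4 higher, 2 lower) in the same order, beside 16.7%, 10.4%, 15.3% and 23.6% of all genes. The median log2 ratio of those tested was 0.19, -0.13, 0.26 and 0.13. Part of the calls at 0.5 came from genes with low levels. With a log2 mean above 3, the other complement genes past 0.5 numbered 4, 1, 2 and 4 in the same order. Counts over all genes also fell, to 878, 298, 745 and 1473. edgeR called 0 of 17 for either term, with 3 of 17 for time and 1 of 17 for MCS at an unadjusted p of 0.05, beside the same 10.4% and 2.45% of all genes.

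Among the genes that start the classical and lectin routes, *Fcna*, which encodes the recognition protein ficolin A, was at 477 CPM in control ZT2, 428 in MCS ZT2, 519 in control ZT14 and 664 in MCS ZT14. The protease gene *C1ra*, whose product acts directly after C1q, was at 64.3, 57.7, 63.5 and 99.3 CPM. Both were highest in MCS ZT14 and lowest in MCS ZT2, as *Cfb* was. MCS against control at ZT14 gave a log2 ratio of 0.35 (0.3 to 0.41) for *Fcna* and 0.64 (0.49 to 0.8) for *C1ra*, and at ZT2 it was -0.16 (-0.22 to -0.09) and -0.16 (-0.34 to 0.02). *C2*, named after its values were seen because it lies 85 bases from *Cfb*, was at 11.3, 8.35, 6.59 and 9.3 CPM, with a mean of 3.37 CPM per kb against 112 for *Cfb*. The lectin protease gene *Masp2* was at 3.23, 2.2, 2.53 and 1.12 CPM, with a log2 ratio of -1.1 (-2.35 to -0.07) for MCS at ZT14, from 11 and 23 reads.

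The later steps were near the limit of detection. The 6 terminal components in the table, *Hc* (C5) among them, lay between 0.205 and 1.5 CPM, where 3 reads correspond to between 0.307 and 0.348 CPM. The reads for the membrane attack complex were thus few, at 2 to 13 per gene and library. Clusterin (*Clu*), a soluble inhibitor of that complex, was at 2.31, 2.55, 1.1 and 2.25 CPM, and its log2 ratio of 1.01 (-0.09 to 2.33) for ZT2 against ZT14 in control rested on 20 and 10 reads. *Cfd*, *C7*, *Fcnb*, *Colec10*, *Colec11* and *Cd59b* had no entry under these names in the expression table, so no level is given for them.

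Of the regulators, *Cr1l* and *Cd55* were well above this level. *Cr1l* (Crry), a rodent membrane regulator of C3 convertases, was at 70.1 CPM in control ZT2, 70.4 in MCS ZT2, 69.8 in control ZT14 and 75.3 in MCS ZT14. *Cd55*, the decay accelerating factor, was at 81.0, 81.4, 112 and 64.9 CPM.
*Cr1l* was level and *Cd55* varied, with its highest value in control ZT14 and its lowest in MCS ZT14. For *Cd55*, MCS against control gave a log2 ratio of -0.79 (-0.94 to -0.65) at ZT14 and 0.01 (-0.14 to 0.16) at ZT2. The 5 B cell genes, none at 0, were also all lower in MCS ZT14 (901 CPM) than in control ZT14 (1279 CPM). Whether B cells had a part in the *Cd55* value was not tested.

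Of the receptors, the integrin chains *Itgam* (5162, 4760, 4214 and 4831 CPM in control ZT2, MCS ZT2, control ZT14 and MCS ZT14) and *Itgb2* (1899, 1714, 1731 and 2039 CPM) form complement receptor 3, and CD11b, the product of *Itgam*, was used for the sort. *Vsig4*, a macrophage receptor for C3 fragments, was at 284, 229, 238 and 208 CPM and was lower with MCS at both times, with log2 ratios of -0.19 (-0.28 to -0.1) at ZT14 and -0.31 (-0.4 to -0.23) at ZT2. *Cd93*, first described as a C1q receptor, was at 764, 766, 511 and 585 CPM.
*Cd93* was higher in both ZT2 libraries, by log2 ratios of 0.58 (0.53 to 0.63) in control and 0.39 (0.34 to 0.44) in MCS, which is the opposite direction to *C3ar1* and *C5ar1*. *Itgax*, another alpha chain that pairs with *Itgb2* and a dendritic cell marker, was at 11.9, 22.2, 11.8 and 7.06 CPM. It was the gene past a log2 ratio of 1 in ZT2 against ZT14 in MCS, at 1.64 (1.25 to 2.07). The 8 genes of small peritoneal macrophages, monocytes and dendritic cells, *Itgax* included and none at 0, summed to 4124, 4775, 3867 and 3765 CPM, and 7 of 8 were higher in that comparison. Their part in the *Itgax* value was not tested.

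*Cr2*, a receptor carried mainly by B cells, was at 24.7, 26.2, 26.4 and 16.2 CPM, lowest in MCS ZT14 as the B cell genes were, whose part was not tested here either. The second C5a receptor, *C5ar2*, was at 1.15, 2.09, 2.31 and 1.02 CPM, and its mean level per length, 0.479 CPM per kb, was far below the 44.2 CPM per kb of *C5ar1*. MCS against control at ZT14 gave -1.1 on the log2 scale (-2.42 to -0.02), from 10 and 21 reads, which with *Masp2* makes the 2 genes past a log2 ratio of 1 there.

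**Figure D5:**
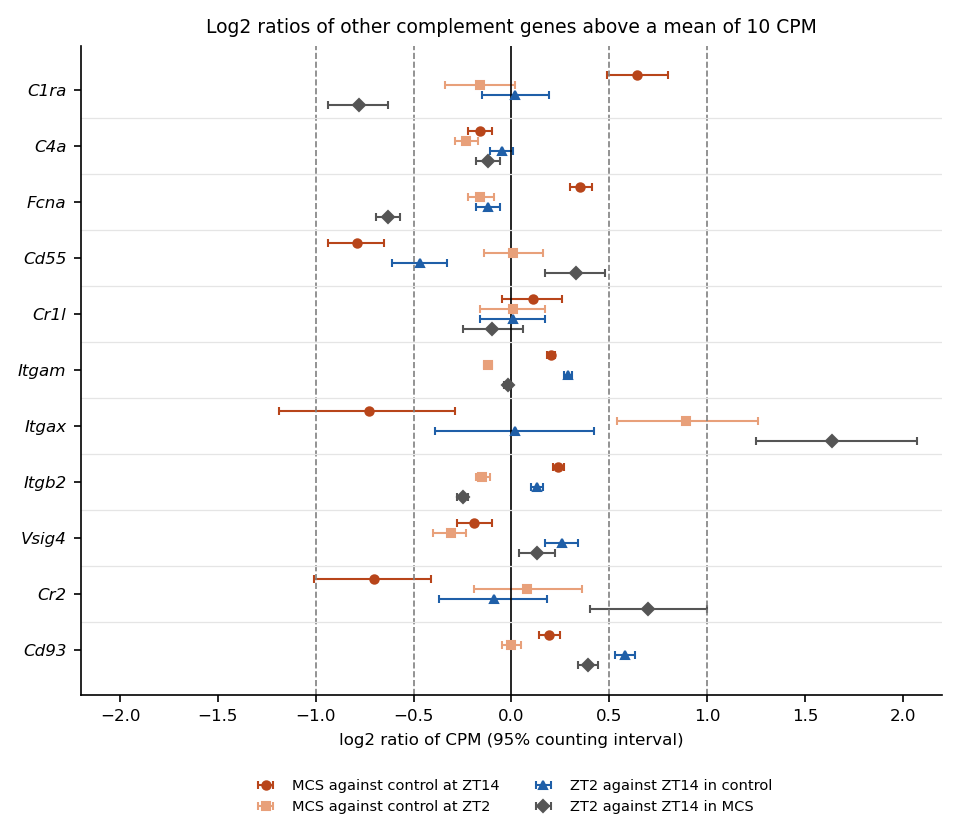
Log2 ratio of CPM (x axis) in the 4 comparisons for the 11 other complement genes with a mean of at least 10 CPM, with 95% counting intervals and dashed lines at 0.5 and 1 in both directions. *Itgax* is the only one with a point beyond 1, and *Fcna* has opposite signs for MCS at ZT14 (0.35) and ZT2 (-0.16).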

How the data were processed

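RNA was depleted of ribosomal RNA and made into directional libraries. The authors trimmed reads with Trimmomatic 0.38, counted them with RSEM 1.3.0 and Bowtie2, and deposited CPM scaled by edgeR; per the submitters' processing notes the build was mm10. The deposited CPM were whole multiples of 1 read (tolerance 0.05 read, 100% of values; RSEM estimates may have been rounded), so reads were recovered as CPM divided by that step. Ratios were log2((CPM + 0.1) ratios), and genes were called at 1 and 0.5 with a log2 mean above 0, with exact conditional binomial 95% intervals of the reads. Intervals without 0, non-overlapping pairs and the AGGAAG search were added after the data were seen. edgeR 4.0.16 (R 4.3.3; TMM; genes with at least 40 reads) was used on recovered reads. Lengths came from GENCODE M21 (GRCm38), whose longest transcript replaced the planned median length because short fragments set the median. Transcripts were aligned with blastn 2.17.0. Scripts ran in Python 3.11.15 and were tested on simulated data. Of the other complement genes, those with a mean of at least 10 CPM or past a log2 ratio of 1 were named, and for genes with a log2 range above 0.5 the 3 nearest genes were named. The genes and lists were chosen with earlier results of these data known. Alternatives were other pseudocounts (1 and 0.01 CPM), expression minimums and scalings. Of the planned list, 1 gene is not reported here.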

Additional observations from a re-analysis of the deposited data

Results flagged for a closer look

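Several genes had log2 ratios with opposite signs under the same contrast in the 2 settings compared, each beyond counting error. With 1 library per condition, these differences were not tested between mice. How many of all genes did the same was not counted, so the list sets nothing apart about complement genes. Intervals without 0 were common among genes with a log2 mean above 6, from 42.4% to 68.8% of them in the 4 comparisons. In the comparison of MCS with control, first at ZT14 and then at ZT2, *C1qb* was at -0.13 and 0.25, *C4b* at 0.1 and -0.21, *Cfb* at 0.29 and -0.29, and *Cfp* at 0.14 and -0.05. Among the other complement genes, *Fcna* was at 0.35 and -0.16, *Itgam* at 0.2 and -0.12, *Itgb2* at 0.24 and -0.15, and *Itgax* at -0.73 and 0.89. In the comparison of ZT2 with ZT14, first in control and then in MCS, *C1qb* was at -0.11 and 0.26, *Cd55* at -0.47 and 0.33, *Itgam* at 0.29 and -0.02, and *Itgb2* at 0.13 and -0.25. The contrasts at the 2 times share libraries with those at the 2 treatments, so a gene listed in both is not seen again independently.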

How the results depend on the processing

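How many of the 9 genes exceeded a log2 ratio of 1 or 0.5 was the same under the other pseudocounts, minimums and scalings tried. The edgeR count test asks for any effect rather than a log2 ratio of 1, and uses the same MCS term for both times. Its calls are therefore no check of this count. Of 148 recomputed log2 ratios of the 9 genes, 147 moved by no more than counting error. *C3* for time in MCS, at 0.0, came to 0.01 with TMM factors, which turns its sign within counting error. The one that moved further was *C4b* for ZT2 against ZT14 in MCS, at -0.42 when *C4a* reads were added. With the median transcript length, the levels per kb were 12087 CPM for *C4b*, 1815 for *Cfp*, 900 for *C1qc*, 286 for *C3* and 183 for *Cfb*. Among all genes, counts past a log2 ratio of 1 went from 421 to 81 for MCS at ZT14, 279 to 26 at ZT2, 450 to 139 for time in control and 731 to 197 in MCS with a log2 mean above 3, and to 1615, 1434, 1567 and 2053 with no minimum. At 0.5 they went from 2065 to 878, 1317 to 298, 1913 to 745 and 2955 to 1473, and to 3971, 3077, 3765 and 4877. For the other complement genes past 1, no minimum gave 9 at MCS ZT14, 4 at ZT2, and 6 and 5 for time in control and MCS. A pseudocount of 1 CPM and a log2 mean above 3 each took MCS at ZT14 from 2 to 0 and time in control from 1 to 0, and a pseudocount of 0.01 CPM took time in MCS from 1 to 2. Past 0.5, no minimum gave 21, 12, 16 and 17 in the same order, a log2 mean above 3 gave 4, 1 and 2 for the first 3 comparisons, and a pseudocount of 1 CPM gave 2 for MCS at ZT2. The edgeR count test called 24 genes for MCS and 295 for time. No paired analysis was possible because each condition had 1 library and so no replicate numbers to pair. The additive edgeR fit compared MCS with control within time. Depth limits genes under about 3 reads per library.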
